A study of Homo sapiens with 9 samples.

Results

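The Toll-like receptor and NF-kB pathway was followed through 40 listed genes, found by matching the Ensembl identifiers of the deposited count table to gene symbols, among 20265 rows in all. The 40 genes comprised 10 receptors (9 Toll-like receptors and the co-receptor LY96), 16 adaptors and kinases, 9 NF-kB subunits and inhibitors, and 5 cytokines and chemokines that NF-kB is known to drive. The cells were U937-Cas9, a human monocytic line of long standing that also carries the Cas9 nuclease used to make gene knockouts. RNA-seq counts were available for 3 libraries of IRF2 knockout cells labelled as carrying pIRF2 (IRF2KO_pIRF2), 3 libraries of IRF2 knockout cells (IRF2KO) and 3 libraries of wild-type cells (WT). IRF2 belongs to the interferon regulatory factors, DNA-binding proteins that act on interferon-related genes. The labels name no stimulus, no time point, no guide and no clone, and they do not say what pIRF2 encodes. Nor do they tell whether replicates came from separate cultures. The p-values therefore measure the spread among these libraries alone, and that spread may be technical.

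Toll-like receptors recognise microbial molecules at the cell surface or in endosomes and recruit the adaptors MYD88 or TICAM1. MYD88 assembles the IRAK kinases and TRAF6, which activate the TAK1 complex (MAP3K7 with TAB1 and TAB2) and then the IKK complex (CHUK, IKBKB and IKBKG). IKK marks the IkB proteins for destruction and so releases NF-kB dimers into the nucleus, where they drive cytokine genes and also the genes of their own inhibitors, such as NFKBIA and TNFAIP3. In monocytes this pathway is best known for the response to bacterial lipopolysaccharide through TLR4.

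Promoter sequence was examined because interferon regulatory factors and NF-kB bind short DNA elements. RefSeq windows on GRCh38.p14, from 250 bases before to 50 bases after a start site, were found for 31 of the 40 genes, in 42 windows. No window was at hand for CCL2, CCL5, IKBKB, LY96, NFKBIE, RELB, TIRAP, TLR1 and TLR7. The interferon regulatory factor element was searched on both strands as the letters GAAANNGAAA. It occurred in 3 of the 42 windows (7.14%), those of MYD88, TLR3 and RELA, and in 3.57% of all 35116 windows. The NF-kB consensus, a 10-base motif also searched on both strands, occurred in 10 of the 42 windows (23.8%), which belong to 9 genes, and in 5.91% of all windows. Those genes were NFKB1, NFKB2, NFKBIA, NFKBIB, REL, TAB2, TICAM1, TNFAIP3 and TRAF3. Where the consensus reads the same on both strands, its matches overlap.

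The 3 stretches with the interferon regulatory factor element are shown first, followed by 4 stretches with the NF-kB consensus from NF-kB genes whose levels are described further on. All are written 5′ to 3′ on the strand of the gene, and capitals mark the matches.
MYD88: gcgcttctcgGAAAGCGAAAgccggcgggg
TLR3: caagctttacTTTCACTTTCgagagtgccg
RELA: agccactggaGAAACTGAAAtgagtgggcg
NFKB1: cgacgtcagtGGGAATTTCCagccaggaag
NFKBIA: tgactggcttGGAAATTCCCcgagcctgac
NFKBIB: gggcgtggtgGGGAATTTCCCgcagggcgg
TNFAIP3: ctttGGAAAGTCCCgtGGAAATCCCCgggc

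The MYD88 stretch lies at chr3:38138590-38138619 on the plus strand, with the match 61 bases before the RefSeq start site. The TLR3 stretch lies at chr4:186069142-186069171 on the plus strand, 4 bases before the start site, and carries the element on the opposite strand. The RELA stretch lies at chr11:65664075-65664104 on the minus strand, 237 bases before the start site. Among the NF-kB matches, that of NFKB1 lies at chr4:102501300-102501329 (plus strand, 49 bases before the start site). That of NFKBIA lies at chr14:35404811-35404840 (minus strand, 81 bases before it). The NFKBIB stretch, at chr19:38899931-38899960 on the plus strand, holds 2 overlapping matches, 28 and 27 bases before the start site. The TNFAIP3 stretch, at chr6:137867188-137867217 on the plus strand, holds 2 separate matches on the opposite strand, 67 and 55 bases before it. In GENCODE 29 the MYD88, NFKBIB and TNFAIP3 stretches fall inside the annotated gene, the NFKBIA and RELA stretches upstream of it, and the TLR3 and NFKB1 stretches across its start. These are matches of letters and say nothing of binding in these cells.

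Library totals ranged from 14824907 to 23108288 counts. A floor of 3 counts corresponded to 0.129 to 0.196 CPM (counts relative to the TMM-scaled library size). This floor covers counting error only. IRF2, the targeted gene (chr4:184387713-184474580, minus strand), had 15.2, 18.1 and 18.4 CPM in the libraries labelled IRF2KO_pIRF2, against 23.5, 25.9 and 25.5 CPM in the IRF2KO libraries, while the WT libraries had 37.1, 39.1 and 44.1 CPM. The 3 groups did not overlap, and the libraries labelled IRF2KO_pIRF2 were the lowest, so directions drawn from that group rest on its label alone. The log2 fold change of IRF2 in IRF2KO against WT was -0.68 ± 0.13 (SE; edgeR quasi-likelihood, Benjamini-Hochberg adjusted p = 0.043). That call was lost on leaving out any 1 library except IRF2KO replicate 2 (adjusted p of 0.061 to 0.20), with a replicate block (0.064) and with the compared groups alone (0.22), while the log2 fold change stayed between -0.74 and -0.61. The log2 fold change of IRF2 in IRF2KO_pIRF2 against WT was -1.22 ± 0.13 (SE; adjusted p = 0.0029, edgeR). With each library left out, its adjusted p was 0.00046 to 0.038. In IRF2KO_pIRF2 against IRF2KO the log2 fold change of IRF2 was -0.53 ± 0.13 (adjusted p = 0.24, edgeR). WT replicate 1 and IRF2KO replicate 2 stood apart, with scores of -36.1 and 52.3 that were the lowest and highest on the first principal component. Mitochondrially encoded genes took 17.3% to 18% of counts in the libraries labelled IRF2KO_pIRF2, 12.2% to 18.8% in the IRF2KO libraries and 12.7% to 17.1% in the WT libraries. Of 12 markers of the monocytic lineage, MPO and CD14 were under 1 CPM in every library. The summed level of the 12 was 2360 to 2420 CPM in IRF2KO_pIRF2, 2490 to 3400 CPM in IRF2KO and 2120 to 2780 CPM in WT libraries. ELANE (1070 to 2020 CPM, highest in IRF2KO replicate 2) and LYZ (535 to 690 CPM) carried most of it. LYZ was at 560 to 588 CPM in IRF2KO_pIRF2, 645 to 690 CPM in IRF2KO and 535 to 562 CPM in WT libraries. CSF1R and ITGAM were low, at 0.618 to 1.34 CPM and 0.653 to 2.57 CPM. ITGAM was at 2.19 to 2.57 CPM in IRF2KO_pIRF2, 0.907 to 1.72 CPM in IRF2KO and 0.653 to 1.75 CPM in WT libraries. Neither LYZ nor ITGAM passed the adjusted test in any comparison with edgeR. Markers of erythroid cells and megakaryocytes were all under 1 CPM. Of 7 T and NK cell markers, 6 were under 1 CPM, with CD3D and CD8A at 0, and NKG7 carried the sum of 325 to 343 CPM in IRF2KO_pIRF2, 318 to 453 CPM in IRF2KO and 289 to 357 CPM in WT libraries. The 7 epithelial and fibroblast markers, with EPCAM and COL1A2 at 0, summed to 2.34 to 2.92 CPM in IRF2KO_pIRF2, 0.963 to 1.87 CPM in IRF2KO and 0.653 to 1.28 CPM in WT libraries. COL1A1 made up most of that sum in the libraries labelled IRF2KO_pIRF2, with 1.86 to 2.48 CPM there, 0.623 to 0.962 CPM in IRF2KO and 0.131 to 0.924 CPM in WT libraries, and the 6 others were under 1 CPM throughout. B-cell markers summed to 17.7 to 19.3 CPM in IRF2KO_pIRF2, 19.6 to 30 CPM in IRF2KO and 13.7 to 19.1 CPM in WT libraries, with MS4A1 at 0. In these bulk samples, fewer cells of a type and less RNA per cell cannot be told apart.

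The signalling core of the pathway was present in every library, whereas most of its receptors were barely detected. Per kb of exon, CCL5 (152 CPM), IRAK1 (68.8 CPM) and MYD88 (17.7 CPM) had the highest levels of the 40 genes over the 9 libraries, while TLR2, TLR7, TLR8 and TLR9 were at or under 3 counts in every library. Of the 40 genes, 32 had counts high enough to be tested: 3 of the 10 receptors, 15 of the 16 adaptors and kinases, all 9 NF-kB subunits and inhibitors and all 5 cytokines. None of the 32 passed an adjusted p of 0.05 in any of the 3 comparisons with edgeR. Over all 11517 tested genes, 0.417% passed in IRF2KO against WT (48 genes), 0.365% in IRF2KO_pIRF2 against IRF2KO (42 genes) and 0.0781% in IRF2KO_pIRF2 against WT (9 genes).

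**Figure D1:**
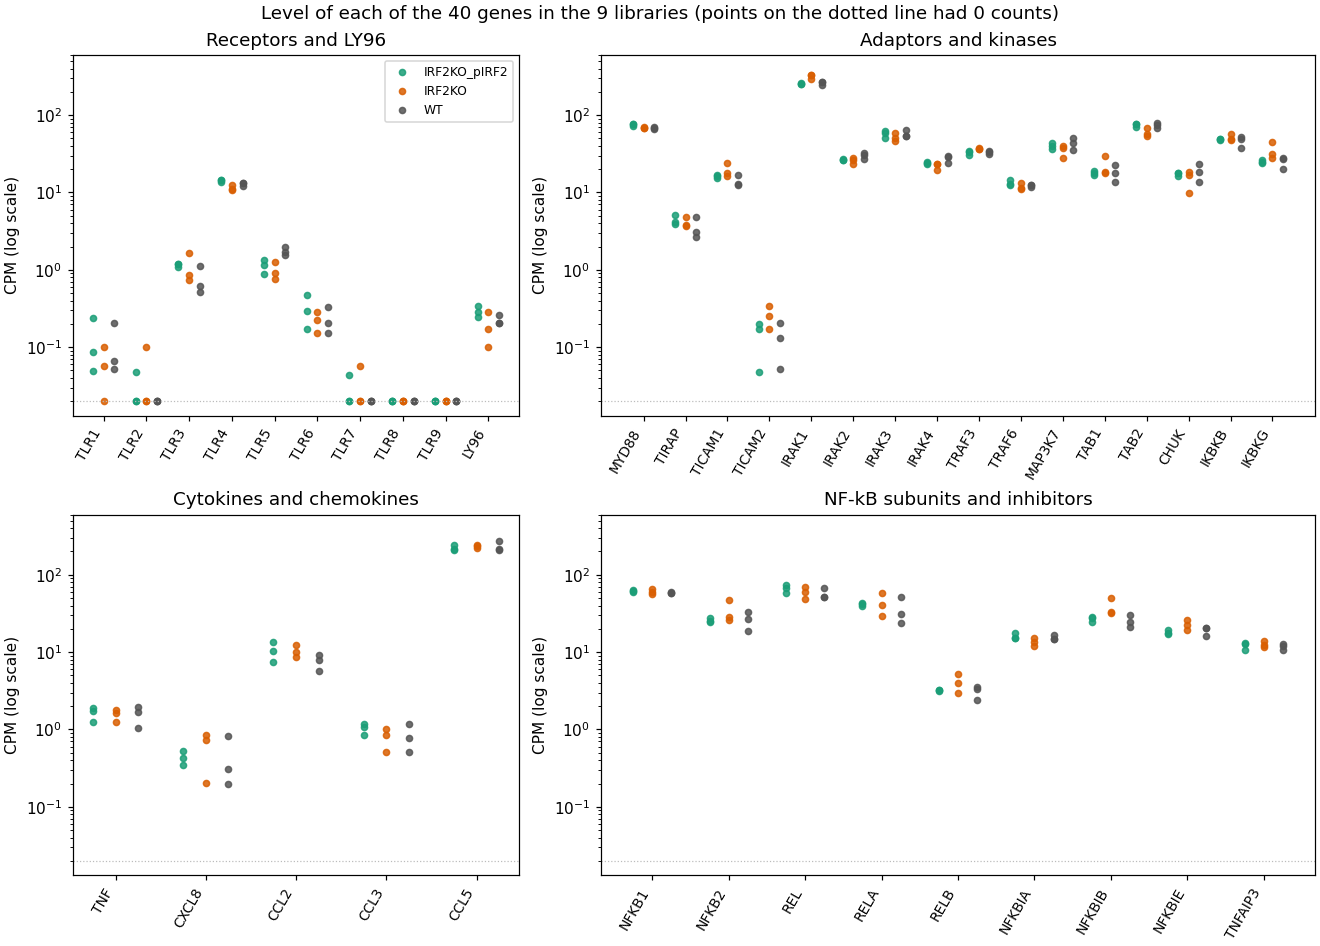
CPM on a log axis of each of the 40 genes, in 4 panels by role. Each point is 1 of the 9 libraries (green IRF2KO_pIRF2, orange IRF2KO, grey WT), and points on the dotted line had 0 counts. TLR2, TLR7, TLR8 and TLR9 sit at the bottom of the receptor panel, while IRAK1 and CCL5 stand at 208 CPM or more in every library.

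Among the receptors, TLR4, the lipopolysaccharide receptor (chr9:117704175-117724730, plus strand), was the most abundant per length, at 0.971 CPM per kb of exon over the 9 libraries. It had 14.6, 13.6 and 14.6 CPM in the libraries labelled IRF2KO_pIRF2, against 11, 10.9 and 12.6 CPM in the IRF2KO libraries, while the WT libraries had 13.4, 12 and 13.1 CPM. The IRF2KO_pIRF2 libraries lay above all others, and the IRF2KO and WT libraries overlapped. TLR4 averaged 14.3 ± 0.579 CPM in IRF2KO_pIRF2 and 11.5 ± 0.927 CPM in IRF2KO libraries (SD, n = 3 each), a log2 fold change of 0.32 ± 0.13 (SE). The 95% interval of that difference ran from 0.04 to 0.59, with an unadjusted p = 0.03 and an adjusted p = 0.44 (edgeR quasi-likelihood). TLR4 had a log2 fold change of -0.16 ± 0.13 in IRF2KO against WT, with an interval from -0.44 to 0.12. That interval lies within 2-fold, given the spread among these libraries.

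LY96, which encodes the MD-2 protein that binds lipopolysaccharide together with TLR4, was second per length at 0.385 CPM per kb of exon but too low to test. Its counts were 8, 5 and 6 in the libraries labelled IRF2KO_pIRF2, against 3, 2 and 5 in the IRF2KO libraries, while each WT library had 4. These few reads are close to the floor in most libraries. CD14 is a surface co-receptor that hands lipopolysaccharide to TLR4 and MD-2. It is outside the 40 genes but among the 70 further pathway genes described below, and was picked out after the values were seen. It had 2, 1 and 1 counts in the libraries labelled IRF2KO_pIRF2, against 0, 0 and 1 in the IRF2KO libraries, while the WT libraries had none, so it stayed at or under the floor throughout.

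TLR5, the receptor for bacterial flagellin (chr1:223109406-223143282, minus strand), had 1.33, 0.892 and 1.14 CPM in the libraries labelled IRF2KO_pIRF2, against 1.25, 0.759 and 0.902 CPM in the IRF2KO libraries, while the WT libraries had 1.96, 1.70 and 1.54 CPM. Every library of both knockout groups lay below every WT library, and the knockout groups overlapped each other. The counts behind these levels were small, at 31, 18 and 24 in IRF2KO_pIRF2, 22, 15 and 16 in IRF2KO, and 38, 26 and 30 in WT libraries. TLR5 had a log2 fold change of -0.84 ± 0.26 (SE) in IRF2KO against WT, with an interval from -1.42 to -0.27, an unadjusted p = 0.008 and an adjusted p = 0.26 (edgeR quasi-likelihood). The value was -0.62 ± 0.25 in IRF2KO_pIRF2 against WT, with an unadjusted p = 0.031 and an adjusted p = 1.0. These comparisons share the WT libraries. TLR5 did not pass the adjusted test in either, and in IRF2KO against WT its log2 fold change was -0.58, with an unadjusted p = 0.086, without both WT replicate 1 and IRF2KO replicate 2.

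TLR3, the endosomal receptor for double-stranded RNA (chr4:186069152-186088069, plus strand), had 1.20, 1.19 and 1.10 CPM in the libraries labelled IRF2KO_pIRF2, against 0.850, 1.67 and 0.733 CPM in the IRF2KO libraries, while the WT libraries had 0.618, 1.11 and 0.514 CPM. IRF2KO replicate 2 and WT replicate 2 stood above the other libraries of their groups, and all 3 groups overlapped. TLR3 had a log2 fold change of 0.59 ± 0.38 (SE) in IRF2KO against WT, with an interval from -0.24 to 1.42, so that a change beyond 2-fold was not excluded at this depth.

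The other Toll-like receptors could not be compared between groups. TLR1 and TLR6, which pair with TLR2 to sense bacterial lipopeptides, had 0 to 5 and 3 to 10 counts per library. TLR2 itself had 1 count in an IRF2KO_pIRF2 library, 2 in an IRF2KO library and none in the other 7. TLR7, a sensor of single-stranded RNA, had 1 count in each of 2 libraries, and TLR8, with the same kind of ligand, had none in any. TLR9, the receptor for unmethylated CpG DNA, also had no counts. Because 86.3% of its exonic length is shared with the overlapping gene AC097637.1, which had no counts either, the value of TLR9 is uncertain. The counts of TLR1 and TLR6, which are alike in sequence, are uncertain too.

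Among the adaptors, MYD88, used by nearly all Toll-like receptors (chr3:38138478-38143022, plus strand), had 17.7 CPM per kb of exon. Its level was 76.0, 72.7 and 76.9 CPM in the libraries labelled IRF2KO_pIRF2, against 68.6, 70.9 and 67.9 CPM in the IRF2KO libraries, while the WT libraries had 65.4, 67.6 and 69.9 CPM. IRF2KO and WT libraries overlapped, and the libraries labelled IRF2KO_pIRF2 lay above both. MYD88 had a log2 fold change of 0.03 ± 0.10 (SE) in IRF2KO against WT, with an interval from -0.18 to 0.24. It was 0.12 ± 0.10 in IRF2KO_pIRF2 against IRF2KO (adjusted p = 0.55, edgeR quasi-likelihood). MYD88 carries the interferon regulatory factor element printed above, as does TLR3.

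TICAM1, the adaptor of TLR3 and of endosomal TLR4 signalling, ranged from 12.5 to 23.7 CPM, with IRF2KO replicate 2 the highest library and WT replicate 1 the lowest. Its log2 fold change in IRF2KO against WT was 0.45 ± 0.17 (SE; unadjusted p = 0.024, adjusted p = 0.26 with edgeR), and the groups overlapped. TIRAP, which bridges TLR2 and TLR4 to MYD88, ranged from 2.68 to 5.11 CPM, and 22.5% of its exonic length overlaps antisense genes. TICAM2, which bridges TLR4 to TICAM1, had 1 to 6 counts per library. The annotation places 93.4% of its exonic length under other genes, among them the TMED7-TICAM2 readthrough gene, so its counts are uncertain.

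The IRAK kinases differed from one another. IRAK1, the most abundant adaptor or kinase at 68.8 CPM per kb of exon (chrX:154010500-154019980, minus strand), had 258, 250 and 253 CPM in the libraries labelled IRF2KO_pIRF2, against 326, 326 and 290 CPM in the IRF2KO libraries, while the WT libraries had 267, 265 and 243 CPM. Every IRF2KO library lay above every library of the other groups, which overlapped each other. IRAK1 averaged 314 ± 20.6 CPM in IRF2KO and 259 ± 13.3 CPM in WT libraries (SD, n = 3 each), a log2 fold change of 0.28 ± 0.10 (SE), or 1.21-fold. The interval ran from 0.07 to 0.49, with an unadjusted p = 0.013 and an adjusted p = 0.26 (edgeR quasi-likelihood). Its log2 fold change was -0.31 ± 0.10 in IRF2KO_pIRF2 against IRF2KO, with an unadjusted p = 0.0076 and an adjusted p = 0.44. IRF2KO_pIRF2 against WT gave -0.03, with an interval from -0.24 to 0.18. Without IRF2KO replicate 2 the values of IRAK1 were 0.25 in IRF2KO against WT and -0.28 in IRF2KO_pIRF2 against IRF2KO.

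IRAK4, the kinase that activates IRAK1 in the MYD88 complex, had 23.8, 25.1 and 23.6 CPM in the libraries labelled IRF2KO_pIRF2, against 23.4, 19.5 and 23.3 CPM in the IRF2KO libraries, while the WT libraries had 29.3, 29.1 and 24.1 CPM. The IRF2KO libraries lay below all others, with WT replicate 3 close to the knockout libraries. IRAK4 had a log2 fold change in IRF2KO against WT of -0.32 ± 0.13 (SE; unadjusted p = 0.031, adjusted p = 0.26 with edgeR). It was -0.18, with an unadjusted p = 0.14, without both WT replicate 1 and IRF2KO replicate 2. IRAK2, a further kinase of the MYD88 complex, ranged from 23.0 to 32.2 CPM, and IRAK3, a negative regulator found mainly in monocytes and macrophages, from 46.9 to 65.1 CPM. Neither reached an unadjusted p of 0.05 in any comparison.

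Downstream of the IRAKs, TRAF6, the ubiquitin ligase of the MYD88 branch, ranged from 11.1 to 14.6 CPM. TRAF3, which takes part in interferon signalling and restrains the alternative NF-kB pathway, had 36.9, 37.2 and 36.9 CPM in the IRF2KO libraries, above the 30.8 to 34.2 CPM of the 6 other libraries. The log2 fold change of TRAF3, 0.16 ± 0.11 (SE) in IRF2KO against WT, had an unadjusted p = 0.16 (edgeR). MAP3K7, the TAK1 kinase, ranged from 28.3 to 50.1 CPM and its partner TAB1 from 13.6 to 29.7 CPM, with WT replicate 1 and IRF2KO replicate 2 at opposite ends for both genes.

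TAB2, the ubiquitin-binding partner of TAK1, had 70.2, 76.8 and 75.9 CPM in the libraries labelled IRF2KO_pIRF2, against 56.7, 54.2 and 67.8 CPM in the IRF2KO libraries, while the WT libraries had 78.8, 67.2 and 75.4 CPM. IRF2KO libraries lay below every IRF2KO_pIRF2 library but overlapped the WT libraries by 1 pair. TAB2 had a log2 fold change of 0.32 ± 0.12 (SE) in IRF2KO_pIRF2 against IRF2KO, with an unadjusted p = 0.021 and an adjusted p = 0.44 (edgeR quasi-likelihood). It was -0.31 ± 0.12 in IRF2KO against WT, with an unadjusted p = 0.024 and an adjusted p = 0.26. These comparisons share the IRF2KO libraries, so their opposite signs are not independent.

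In the IKK complex, IKBKG, the regulatory subunit NEMO (chrX:154541199-154565046, plus strand), had 24.4, 25.9 and 23.8 CPM in the libraries labelled IRF2KO_pIRF2, against 31.3, 45.4 and 27.5 CPM in the IRF2KO libraries, while the WT libraries had 20.1, 27.3 and 28.2 CPM. IRF2KO replicate 2 stood far above the other IRF2KO libraries, and the lowest IRF2KO library lay within the range of the WT libraries. Its log2 fold change was -0.49 ± 0.19 in IRF2KO_pIRF2 against IRF2KO (SE; unadjusted p = 0.024, adjusted p = 0.44 with edgeR), and without IRF2KO replicate 2 it was -0.25. It was 0.46 ± 0.19 in IRF2KO against WT (unadjusted p = 0.032), and 0.22 without that library. IKBKG has a near-identical pseudogene copy, so its counts are uncertain. The kinase subunits CHUK and IKBKB ranged from 9.97 to 23.2 CPM and from 37.8 to 56.3 CPM. For both, the extreme libraries were again WT replicate 1 and IRF2KO replicate 2.

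**Figure D2:**
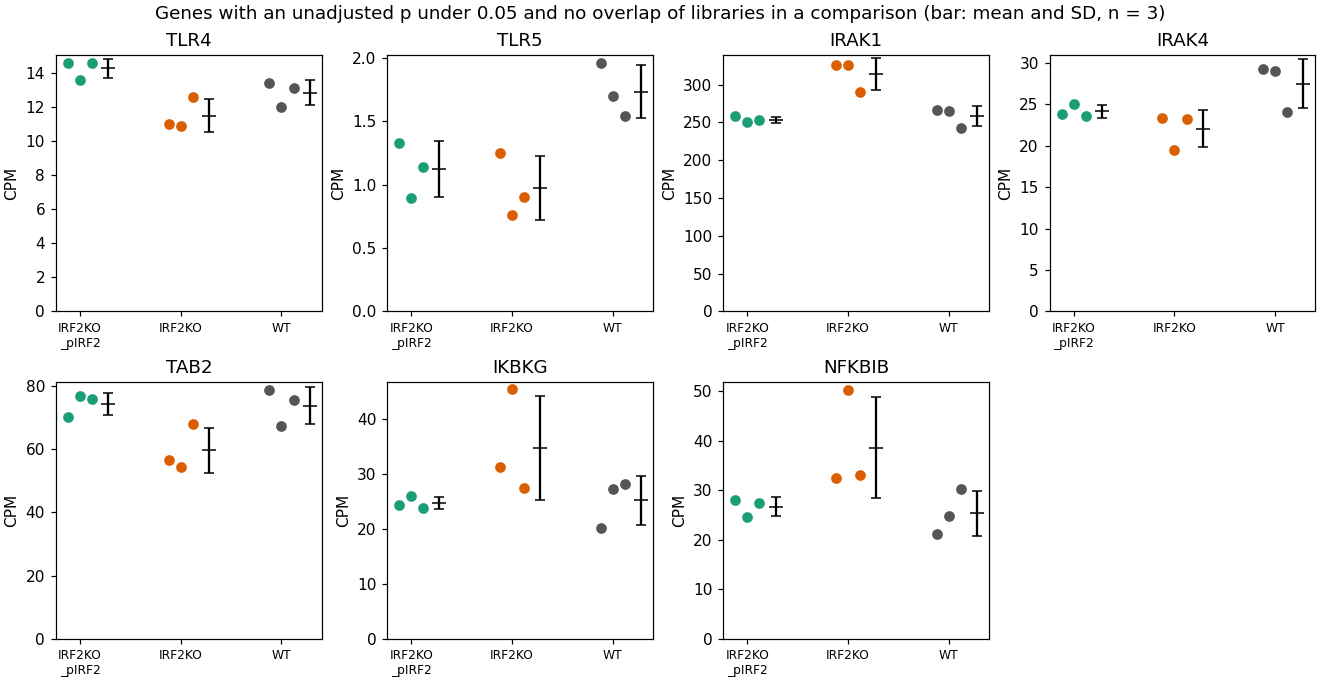
CPM in each library of the 7 genes with an unadjusted p under 0.05 and no overlap between the libraries of a compared pair of groups, with the axis starting at 0. Points are libraries, and the bar beside them gives the mean and SD (n = 3). IRAK1 is highest in all 3 IRF2KO libraries, TLR5 is lower in both knockout groups than in WT, and 1 IRF2KO library stands above the rest for IKBKG and NFKBIB.

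The 5 NF-kB subunits were detected in every library, and in IRF2KO against WT the libraries of both groups overlapped for each of them. NFKB1, the precursor of the p50 subunit (chr4:102501329-102617302, plus strand), had 60.1, 63.1 and 62.2 CPM in the libraries labelled IRF2KO_pIRF2, against 59.0, 56.0 and 64.7 CPM in the IRF2KO libraries, while the WT libraries had 59.9, 57.9 and 58.7 CPM. The IRF2KO libraries spanned both other groups, and the libraries labelled IRF2KO_pIRF2 lay just above the WT libraries. NFKB1 had a log2 fold change of 0.03 ± 0.10 (SE) in IRF2KO against WT, with an interval from -0.20 to 0.25. RELA, the p65 subunit, spread more widely within groups, from 39.1 to 43.5 CPM in IRF2KO_pIRF2, from 29.1 to 57.7 CPM in IRF2KO and from 23.7 to 51.9 CPM in WT libraries. NFKB2, the precursor of p52, ranged from 18.8 to 46.7 CPM over the 9 libraries and RELB, its usual partner, from 2.42 to 5.26 CPM. For these 3 subunits IRF2KO replicate 2 was the highest library and WT replicate 1 the lowest. REL, the c-Rel subunit, ranged from 49.0 to 73.2 CPM, with 43.3% of its exonic length shared with an overlapping noncoding gene.

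Of the inhibitors, NFKBIB, which encodes IkB-beta and retains NF-kB in the cytoplasm, had 28.1, 24.6 and 27.4 CPM in the libraries labelled IRF2KO_pIRF2, against 32.4, 50.3 and 33.0 CPM in the IRF2KO libraries, while the WT libraries had 21.2, 24.7 and 30.2 CPM. All IRF2KO libraries lay above all others, but IRF2KO replicate 2 stood apart from the other IRF2KO libraries. NFKBIB averaged 38.6 ± 10.2 CPM in IRF2KO and 25.4 ± 4.55 CPM in WT libraries (SD, n = 3 each), a log2 fold change of 0.60 ± 0.19 (SE), or 1.52-fold. The interval ran from 0.19 to 1.01, with an unadjusted p = 0.0077 and an adjusted p = 0.26 (edgeR quasi-likelihood). The corresponding value was -0.53 ± 0.19 in IRF2KO_pIRF2 against IRF2KO, with an unadjusted p = 0.015 and an adjusted p = 0.44. NFKBIB carries an NF-kB match in the stretch printed above. Without IRF2KO replicate 2 its values became 0.36 and -0.29, and without WT replicate 1 as well, 0.25 and -0.29.

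NFKBIA and TNFAIP3, inhibitors that NF-kB itself induces, serve as common readouts of ongoing NF-kB activity. NFKBIA, which encodes IkB-alpha, ranged from 15.1 to 17.7 CPM in IRF2KO_pIRF2, from 11.9 to 15.2 CPM in IRF2KO and from 14.8 to 16.5 CPM in WT libraries. Its log2 fold change was -0.19 ± 0.14 (SE) in IRF2KO against WT, with an interval from -0.49 to 0.12. TNFAIP3, the ubiquitin-editing enzyme A20, ranged from 10.8 to 13.8 CPM, and its log2 fold change was 0.09 ± 0.14, with an interval from -0.23 to 0.40. Neither gene separated the groups, and both intervals lie within 2-fold. NFKBIE, which encodes IkB-epsilon, ranged from 16.2 to 26.4 CPM, and its values overlapped between the groups in all 3 comparisons.

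As a group, 8 of the 9 NF-kB subunits and inhibitors had a fitted log2 fold change above 0 in IRF2KO against WT, with a median of 0.25, beside 48.5% above 0 and a median of -0.01 over all tested genes. Only NFKBIB among the 9 had an unadjusted p under 0.05. Without IRF2KO replicate 2 the median of the 9 was 0.07, and without both that library and WT replicate 1 it was 0.03, with 6 of 9 above 0. The part these libraries play in the difference was not tested.

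The cytokines and chemokines split into CCL5 and 4 others whose levels per length were far lower. CCL5, a chemokine for T cells and monocytes also called RANTES (chr17:35871491-35880793, minus strand), had 152 CPM per kb of exon, against 4.77 CPM per kb for CCL2 and 0.216 to 0.941 CPM per kb for TNF, CCL3 and CXCL8. Its 209, 246 and 218 CPM in the libraries labelled IRF2KO_pIRF2 stood against 236, 245 and 222 CPM in the IRF2KO libraries, while the WT libraries had 208, 216 and 270 CPM. The 3 groups overlapped throughout. CCL5 had a log2 fold change of 0.02 ± 0.12 (SE) in IRF2KO against WT, with an interval from -0.25 to 0.28 and an adjusted p = 0.93 (edgeR quasi-likelihood).

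CCL2, the monocyte chemoattractant MCP-1, had 7.52, 10.4 and 13.5 CPM in the libraries labelled IRF2KO_pIRF2, against 8.61, 12.4 and 10 CPM in the IRF2KO libraries, while the WT libraries had 9.11, 7.96 and 5.75 CPM. Both knockout groups overlapped the WT libraries at their lower end. CCL2 had a log2 fold change of 0.45 ± 0.24 (SE) in IRF2KO against WT, with an interval from -0.08 to 0.98 and an adjusted p = 0.29 (edgeR quasi-likelihood). Its value was 0.28 without WT replicate 3 and 0.29 without IRF2KO replicate 2. It was 0.46 ± 0.24 in IRF2KO_pIRF2 against WT, with an adjusted p = 1.0, and 0.23 without IRF2KO_pIRF2 replicate 3 or 0.29 without WT replicate 3.

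TNF, the inflammatory cytokine, was at 1.03 to 1.96 CPM in all 9 libraries. TNF had a log2 fold change of 0.00 ± 0.28 (SE) in IRF2KO against WT, with an interval from -0.62 to 0.62. CXCL8, the neutrophil chemokine interleukin-8, had 3 to 16 counts per library, and its interval in IRF2KO against WT ran from -0.88 to 1.58. CCL3, the chemokine MIP-1-alpha, was at 0.51 to 1.19 CPM; 74.6% of its exonic length overlaps an antisense gene and it has a near-identical copy, so its level is uncertain. IL6, an NF-kB target outside the 40 genes, is among the 70 further pathway genes described below. It was picked out after the values were seen and had no counts in any library.

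In the fit to all 9 libraries, the counts over the 32 tested genes mostly lay close to those over all genes. In IRF2KO against WT, 7 of 32 (21.9%) had an unadjusted p under 0.05, namely TLR5, TICAM1, IRAK1, IRAK4, TAB2, IKBKG and NFKBIB, beside 18.7% of all tested genes. With no overlap between the groups as well, 4 remained (12.5%), with IRAK1 and NFKBIB higher and TLR5 and IRAK4 lower in IRF2KO, beside 11.3% of all tested genes (6.36% higher and 4.96% lower). In IRF2KO_pIRF2 against IRF2KO, 5 of 32 (15.6%) had an unadjusted p under 0.05 and the same 5 showed no overlap, beside 11.2% and 9.66% of all tested genes. TLR4 and TAB2 were higher and IRAK1, IKBKG and NFKBIB lower in IRF2KO_pIRF2, beside 4.0% of all tested genes higher and 5.66% lower. In IRF2KO_pIRF2 against WT, TLR5 alone met both conditions (3.12%), beside 3.92% and 3.32% of all tested genes (1.64% higher and 1.68% lower). Libraries without overlap, whatever the p, were seen for 5 of 32 genes (15.6%) in IRF2KO against WT, beside 17.2% of all tested genes. The same was seen for 8 (25%) in IRF2KO_pIRF2 against IRF2KO, beside 22.6%, and for 5 (15.6%) in IRF2KO_pIRF2 against WT, beside 11.6%. DESeq2 also called 0 of the 32 genes in each comparison, with 7 (21.9%), 6 (18.8%) and 0 genes at an unadjusted p under 0.05 in the same order of comparisons, beside 20.2%, 12% and 3.98% of all genes it tested. With each library left out in turn, the edgeR counts ran from 3 (without IRF2KO replicate 2) to 10 (without WT replicate 3) in IRF2KO against WT, beside 6.97% and 34.5% of all tested genes in those fits. In IRF2KO_pIRF2 against IRF2KO they ran from 2 (without IRF2KO replicate 2 or IRF2KO_pIRF2 replicate 3) to 6 (without IRF2KO replicate 3 or WT replicate 1). The shares of all tested genes in those fits were 4.67%, 4.76%, 19.7% and 12.5%. In IRF2KO_pIRF2 against WT they ran from 0 (without IRF2KO_pIRF2 replicate 2 or 3) to 3 (without WT replicate 3), beside 3.34%, 1.97% and 10.2%. The smallest adjusted p of any of the 32 genes with edgeR was 0.26 in IRF2KO against WT, 0.44 in IRF2KO_pIRF2 against IRF2KO and 1.0 in IRF2KO_pIRF2 against WT.

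**Figure D3:**
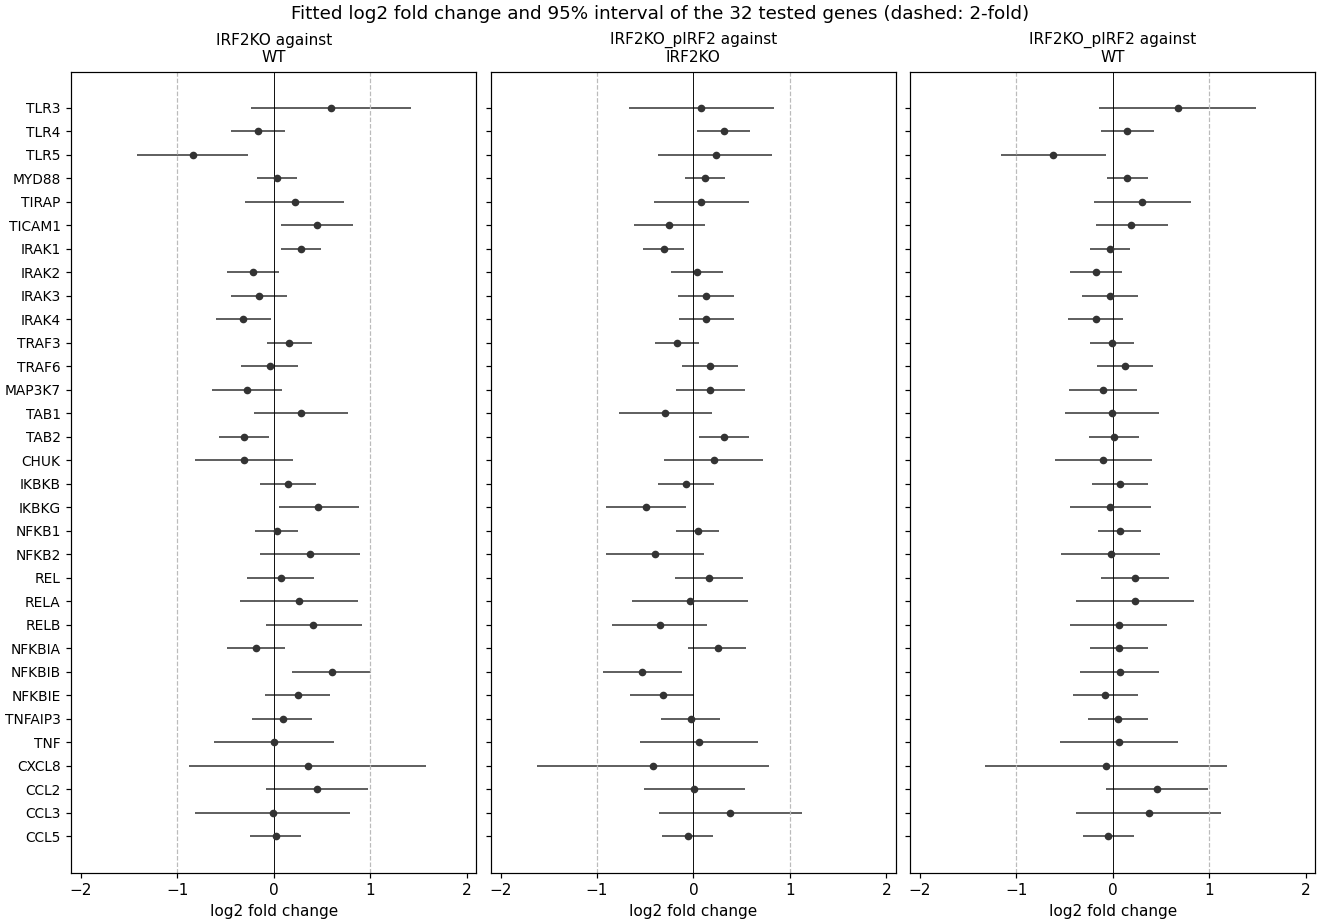
Fitted log2 fold change (points) and 95% interval (lines) of the 32 tested genes in the 3 comparisons, with dashed lines at a 2-fold difference either way. In IRF2KO against WT, 28 of the 32 intervals lie within 2-fold, and those of TLR3, TLR5, NFKBIB and CXCL8 reach beyond it.

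The size of difference that these libraries leave room for was read from the 95% intervals. In IRF2KO against WT, the interval lay within 2-fold for 28 of 32 genes (87.5%), beside 84.7% of all tested genes. These were 1 of 3 receptors (TLR4), all 15 adaptors and kinases, 8 of 9 NF-kB subunits and inhibitors and 4 of 5 cytokines. The same held in IRF2KO_pIRF2 against IRF2KO for 30 of 32 genes (93.8%, beside 89.0%), and in IRF2KO_pIRF2 against WT for 28 of 32 (87.5%, beside 92.3%). The median log2 fold change of the 32 genes was 0.08 in IRF2KO against WT, 0.04 in IRF2KO_pIRF2 against IRF2KO and 0.06 in IRF2KO_pIRF2 against WT. Over all tested genes the medians were -0.01, 0.00 and -0.01 in the same order. In IRF2KO against WT the median of the 32 genes was 0.01 without IRF2KO replicate 2 (17 above 0) and 0.00 without both that library and WT replicate 1 (16 above 0). Values above 0 were fitted for 21, 18 and 18 of the 32 genes, beside 48.5%, 50.2% and 47.1% of all tested genes. A missed threshold does not show that the groups are equal. The intervals bound the difference only given the spread among these libraries, which may be technical.

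The pair of libraries that stood apart often lay at the end of the range of a gene. IRF2KO replicate 2 was the highest library for 13 and the lowest for 9 of the 32 genes, so it lay at an end for 68.8% of them, beside 72.1% of all tested genes. WT replicate 1 was highest for 7 and lowest for 11, an end for 56.2%, beside 59.5% of all tested genes. CHUK, MAP3K7 and IRAK4 were lowest and NFKBIB, IKBKG, NFKB2 and RELA highest in IRF2KO replicate 2. Without both libraries, 0 of the 32 genes passed the edgeR test in any comparison, with 3 (9.38%), 7 (21.9%) and 2 (6.25%) at an unadjusted p under 0.05 in IRF2KO against WT, IRF2KO_pIRF2 against IRF2KO and IRF2KO_pIRF2 against WT. Over all genes tested in that fit the shares were 6.46%, 8.48% and 7.83%. In IRF2KO_pIRF2 against IRF2KO the 32 genes thus lay further from all genes than with all 9 libraries (15.6% beside 11.2%). The reason was not tested.

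**Figure D4:**
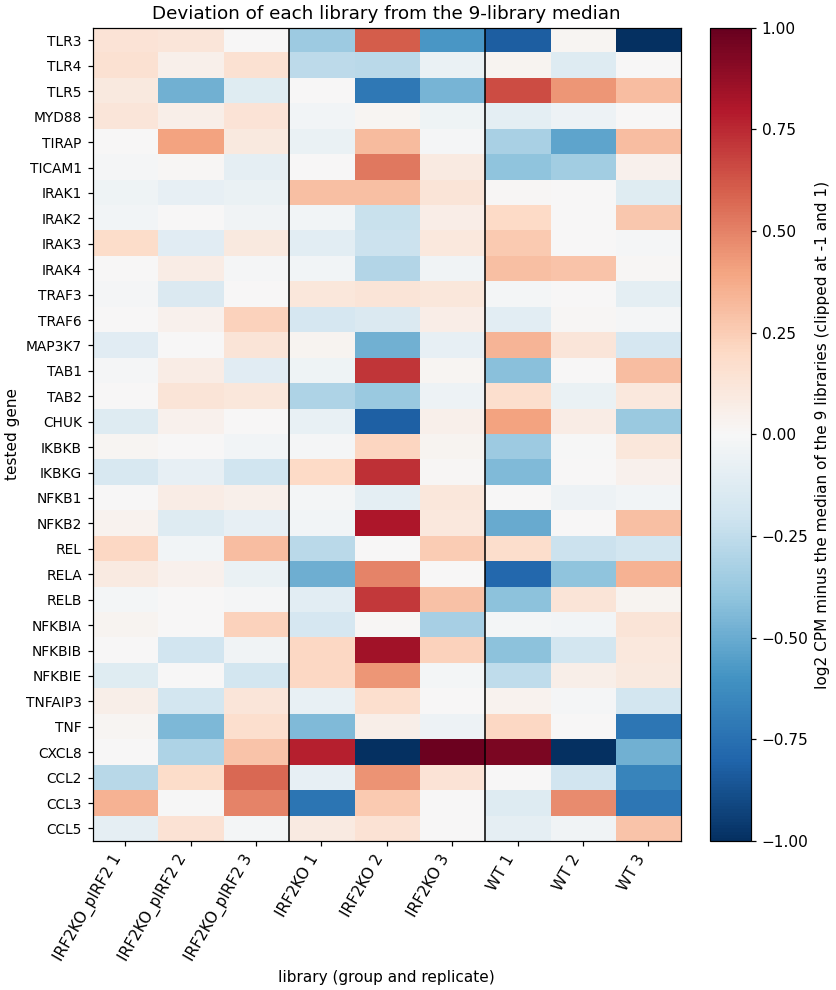
Log2 CPM of each tested gene minus its median over the 9 libraries, clipped at -1 and 1 (red above, blue below), with libraries in columns and vertical lines between the groups. The median absolute deviation is 0.31 in IRF2KO replicate 2 and 0.26 in WT replicate 1, against at most 0.15 in any other library. These 2 libraries have opposite signs in 25 of the 32 genes, and the share over all tested genes was not counted. Over all tested genes, the deviations of these 2 libraries from their group means correlated at -0.73. Single deep colours in other libraries belong to low genes such as CXCL8 and TLR3.

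Beyond the 40 genes, 70 further genes of the pathway were examined as a list (co-receptors, further kinases, ubiquitin enzymes, mitogen-activated kinases and other targets), of which 56 had enough counts. None passed the adjusted test in any comparison with edgeR, and 13 (23.2%), 7 (12.5%) and 3 (5.36%) had an unadjusted p under 0.05 in IRF2KO against WT, IRF2KO_pIRF2 against IRF2KO and IRF2KO_pIRF2 against WT. The shares over all tested genes were 18.7%, 11.2% and 3.92%. Their median log2 fold changes were -0.08, 0.01 and -0.01 in the same order. Of the 56, 9 (16.1%) combined an unadjusted p under 0.05 with no overlap in IRF2KO against WT, beside 11.3% of all tested genes. Of these, 5 (8.93%) were higher and 4 (7.14%) lower in IRF2KO, beside 6.36% and 4.96% of all tested genes.

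The smallest p of that list belonged to LY86, which is described here because of its values. LY86 encodes MD-1, a homologue of MD-2 that partners CD180, a receptor related to the Toll-like receptors. It had 18.1, 21.4 and 18.2 CPM in the libraries labelled IRF2KO_pIRF2, against 12.7, 11.2 and 11.9 CPM in the IRF2KO libraries, while the WT libraries had 15.6, 14.9 and 16.2 CPM. The 3 groups did not overlap, and IRF2KO was the lowest. LY86 had a log2 fold change of 0.69 ± 0.13 (SE) in IRF2KO_pIRF2 against IRF2KO, with an interval from 0.41 to 0.97. It narrowly missed the threshold with edgeR (adjusted p = 0.051) and passed it with DESeq2 (adjusted p = 1.6e-04). It was -0.38 ± 0.13 in IRF2KO against WT, with an unadjusted p = 0.012 and an adjusted p = 0.26 (edgeR).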

How the data were processed

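Per the labels, a Macherey Nagel kit was used for RNA and a Lexogen SENSE kit for libraries. The authors deposited 1 table of raw counts of reads per gene. The submitters' processing notes name HTSeq 0.9.1, TopHat2 2.1.1, Bowtie2 2.3.3, bedtools and SAMtools, with the hg38 build. Not given in the sources used here are the annotation release, the strand setting and how overlapping genes were counted.

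Of 20265 identifiers, 20012 matched GENCODE 29 (GRCh38), the source of symbols and coordinates. Low counts were removed by filterByExpr, and all 9 libraries entered 1 edgeR 4.0.16 fit (R 4.3.3; TMM factors, glmQLFit and glmQLFTest) without a covariate. Adjusted p-values are Benjamini-Hochberg over all 11517 tested genes, with a threshold of 0.05. Standard errors with edgeR are approximate, taken as the absolute log2 fold change divided by the square root of the F statistic. Intervals are 95% t intervals around the log2 fold change, built on these standard errors. DESeq2 1.42.0 was an alternative. Levels are TMM-scaled CPM.

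The genes and lists were chosen with earlier results of these data known. Genes named with values in every library had an unadjusted p under 0.05 without overlap in a comparison, or were among the 2 highest per exonic length in their role. Other genes given in full were chosen after their values were seen.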

Additional observations from a re-analysis of the deposited data

How the results depend on the processing

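None of the listed genes that were tested passed in any comparison under any alternative run. Of the 40, 38 were tested with no filter on low counts and 31 or 32 in every other run. The runs were DESeq2, its size factors in edgeR, no filter on low counts, the compared groups alone and a replicate block. Further runs left out each library in turn, or WT replicate 1 and IRF2KO replicate 2 together. With each library left out in turn, the smallest adjusted p among the 32 tested genes (edgeR) was 0.11 to 0.71 in IRF2KO against WT. It was 0.18 to 0.87 in IRF2KO_pIRF2 against IRF2KO and 0.45 to 1.0 in IRF2KO_pIRF2 against WT.

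The count of all tested genes past the threshold moved more. In IRF2KO against WT it was 48, with 121 by DESeq2 and 31 with the compared groups alone, and 34 to 49 with each library left out. In IRF2KO_pIRF2 against IRF2KO it was 42, with 68 by DESeq2, 57 without both libraries that stood apart, and 26 to 47 with each library left out, the lowest without IRF2KO_pIRF2 replicate 2. In IRF2KO_pIRF2 against WT it was 9, with 39 by DESeq2, 18 with no filter, 16 with the compared groups alone, 27 without both libraries that stood apart, and 3 (without WT replicate 2) to 25 (without IRF2KO replicate 2) with each library left out. The cause was not tested.

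Whether the replicate numbers pair the samples was not settled. Correlations of deviations from the group mean ran from -0.43 to 0.606 for same-numbered libraries and from -0.73 to 0.707 for different-numbered ones. With 3 libraries per group, the deviations within a group depend on each other, so these values cannot decide it. With a replicate block, 39, 36 and 7 genes passed in the same order of comparisons, and 0 of the 32 tested genes of the pathway in each.

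LY86 in IRF2KO_pIRF2 against IRF2KO also passed with no filter (adjusted p = 0.050) and without both libraries that stood apart (0.025), and missed the threshold in the 9 fits that left out 1 library (0.060 to 0.32).

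With each library left out, log2 fold changes ran from -0.06 to 0.14 for CCL5 and from -0.04 to 0.07 for NFKB1 in IRF2KO against WT, and from -0.22 to 0.21 for CCL2 and from 0.00 to 0.11 for NFKB1 in IRF2KO_pIRF2 against IRF2KO. In IRF2KO_pIRF2 against WT they ran from -0.05 to 0.06 for TAB2, -0.17 to 0.06 for IKBKG, -0.04 to 0.22 for NFKBIB and -0.12 to 0.08 for CCL5. Signs turned only where the adjusted p was at least 0.77. In IRF2KO against WT the log2 fold change was -0.01 for MYD88 without both libraries, -0.04 for NFKB1 without IRF2KO replicate 3, and for CCL5 -0.06, -0.03, -0.02 and -0.09 without WT replicate 1, WT replicate 2, IRF2KO replicate 2 and both libraries. In IRF2KO_pIRF2 against IRF2KO it was 0.00 for NFKB1 without IRF2KO replicate 2 or both libraries, and -0.10, -0.01 and -0.22 for CCL2 without IRF2KO replicate 1, IRF2KO replicate 3 and IRF2KO_pIRF2 replicate 3. In IRF2KO_pIRF2 against WT it was -0.05, -0.02 and -0.01 for TAB2 without WT replicate 2, IRF2KO_pIRF2 replicate 2 and IRF2KO_pIRF2 replicate 3, and 0.03 and 0.06 for IKBKG without WT replicates 2 and 3. It was -0.04 and -0.05 for NFKBIB without WT replicate 1 and both libraries, and 0.08 and 0.00 for CCL5 without WT replicate 3 and IRF2KO_pIRF2 replicate 1.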
